A study of Mus musculus with 36 samples.

Results

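The leptin receptor Lepr and 8 genes of its signalling (Jak2, Stat3, Socs3, Ptpn1, Irs2, Pdpk1, Akt1 and Foxo1) were followed in brain tissue labelled cortex, hypothalamus and hippocampus, from mice that lost functional Dicer in Camk2a-expressing neurons as adults. All probe sets annotated to exactly 1 of these 9 genes were taken, with no choice by their values. They numbered 26 of the 34945 probe sets annotated to 1 gene, with 4 for Lepr, 2 for Jak2, 4 for Stat3, 3 for Socs3, 2 for Ptpn1, 1 for Irs2, 2 for Pdpk1, 4 for Akt1 and 4 for Foxo1. Each probe set condenses the signals of several short oligonucleotides into 1 value, and probe sets of the same gene can read different stretches of its transcripts.

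Leptin is a hormone of fat cells that acts on neurons, chiefly in the hypothalamus, to lower food intake. Its long receptor isoform carries the kinase JAK2, which phosphorylates the transcription factor STAT3. STAT3 in turn induces SOCS3, an inhibitor that binds the receptor and JAK2, while the phosphatase PTP1B, product of Ptpn1, removes phosphate from JAK2. In a second arm, shared with insulin, IRS2 activates PI3-kinase, PDK1 (product of Pdpk1) and AKT1 phosphorylate in sequence, and FOXO1 is sent out of the nucleus. Much of this relay runs through phosphorylation, which an expression array does not measure.

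The series holds 36 arrays, 3 for each of 12 groups defined by tissue, treatment and time. All mice were Cre+; Dicer lox/lox on a C57BL/6J background, carrying the Camk2a-CreERT2 transgene and the floxed Dicer allele alike. Conditional knockout (cKO) mice received tamoxifen (10 mg in all) at 8 weeks of age and control mice received vehicle only, so that the arrays do not separate the loss of Dicer from tamoxifen itself. Tissue was taken 4 weeks after induction, when cKO mice were obese, or 8 weeks after it, when they were losing weight. Cre excises exon 24 of Dicer only in Camk2a-expressing cells, and other neurons and glia of the dissected tissue keep the allele. The labels name 12 cKO and 13 control animals, of which 6 cKO and 5 control animals gave both a cortex and a hypothalamus array.

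Values are log2 intensities after RMA (robust multi-array average), which was run for each tissue on its own, so that levels in different tissues are set side by side below without a test. The correlation of an array with the others of its tissue was between 0.987 and 0.996, and 0 pairs of arrays were identical. Pmch, Hcrt and Avp, neuropeptides of the hypothalamus, averaged 13.4, 12.4 and 12.3 there, against 4.91, 4.98 and 5.01 in the cortex. Lamp5, a gene of cortical neurons, averaged 11.5 in the cortex. The label hippocampus went against several of the markers in 11 of its 12 arrays. In those 11, Neurod6, a transcription factor of forebrain excitatory neurons, was 2.68 to 3.31, Slc17a7, their vesicular glutamate transporter, was 3.74 to 4.41, and Spink8, Lct and Dsp, genes of hippocampal neurons, were 3.31 to 3.82, 3.24 to 3.66 and 3.24 to 3.69, all near the floor of the array. Prox1, a gene of dentate granule neurons, was 4.02 to 4.78. Slc17a6, the transporter of most subcortical glutamate neurons, was 10.87 to 11.38 and Lhx9 was 8.27 to 9.40. Zbtb20 and Wfs1, also on the hippocampal list, averaged 9.50 and 9.07 over the 12 arrays, but 9.95 and 9.85 in the hypothalamus. Fibcd1, of the same list, went the other way, at 6.66 to 7.67 in the 11 arrays. Its mean over the 12 was 6.97, against 6.22 in the cortex and 5.95 in the hypothalamus. The exception was replicate 1 of the 8-week cKO, with Neurod6 at 9.05, Slc17a7 at 7.56, Spink8 at 8.36, Lct at 8.51 and Dsp at 8.11. These arrays are therefore called "labelled hippocampus" throughout, and what they add about the hippocampus is not known. The probe sets of Dicer1 overlapped between the 6 cKO and the 6 control arrays of every tissue (in the cortex, 6.21 to 6.77 in cKO and 5.70 to 6.65 in control for 1427941_at), and whether they read exon 24 is not known here. In the cortex at 4 weeks, cKO replicate 3 and control replicate 3 correlated less with their own group (0.986 and 0.987) than with all other cortex arrays (0.989 and 0.988). Results of this comparison are therefore also given without them and without cKO replicate 2 of 8 weeks, a set taken from earlier work on these data.

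At 4 weeks in the cortex, 3 of the 26 probe sets were called at a false discovery rate (FDR) of 15%, all higher in cKO: Lepr 1456156_at, Foxo1 1416981_at and Foxo1 1416982_at. Whole tissue was measured, so that more or fewer cells of a type and more or less RNA per cell cannot be told apart. Of all 34945 probe sets, 2.88% were called there, 2.37% higher and 0.509% lower in cKO. At an unadjusted p under 0.05 stood 6 of the 26 (23.1%), beside 18.8% of all. The cKO and control arrays did not overlap for 4 of the 26, the 3 called and Jak2 1421066_at, beside 17.7% of all probe sets. The median difference, cKO minus control, was 0.08 over the 26 and 0.09 over all probe sets. In the other 5 comparisons limma called 0 of the 26, and the lowest adjusted p among them was 0.446, for Socs3 1456212_x_at in the hypothalamus at 8 weeks.

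Those comparisons had few or no calls at all. Over all probe sets the share called was 0% in the cortex at 8 weeks, 0% in the hypothalamus at 4 weeks, 0.00858% in the hypothalamus at 8 weeks, and 0% in the arrays labelled hippocampus at either time. Without overlap between cKO and control were 7 of the 26 in the cortex at 8 weeks (15.3% of all probe sets), 1 in the hypothalamus at 4 weeks (6.85%), 6 in the hypothalamus at 8 weeks (12.1%), 6 in the arrays labelled hippocampus at 4 weeks (10.5%) and 2 in the arrays labelled hippocampus at 8 weeks (13.5%). At an unadjusted p under 0.05 stood 4 (15.4%), 1 (3.85%), 6 (23.1%), 4 (15.4%) and 2 (7.69%) of the 26 in the same comparisons, beside 4.75%, 3.07%, 5.87%, 6.07% and 5.71% of all probe sets. All 6 in the hypothalamus at 8 weeks were higher in cKO, and they belonged to Socs3, Stat3 and Ptpn1.

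**Figure D1:**
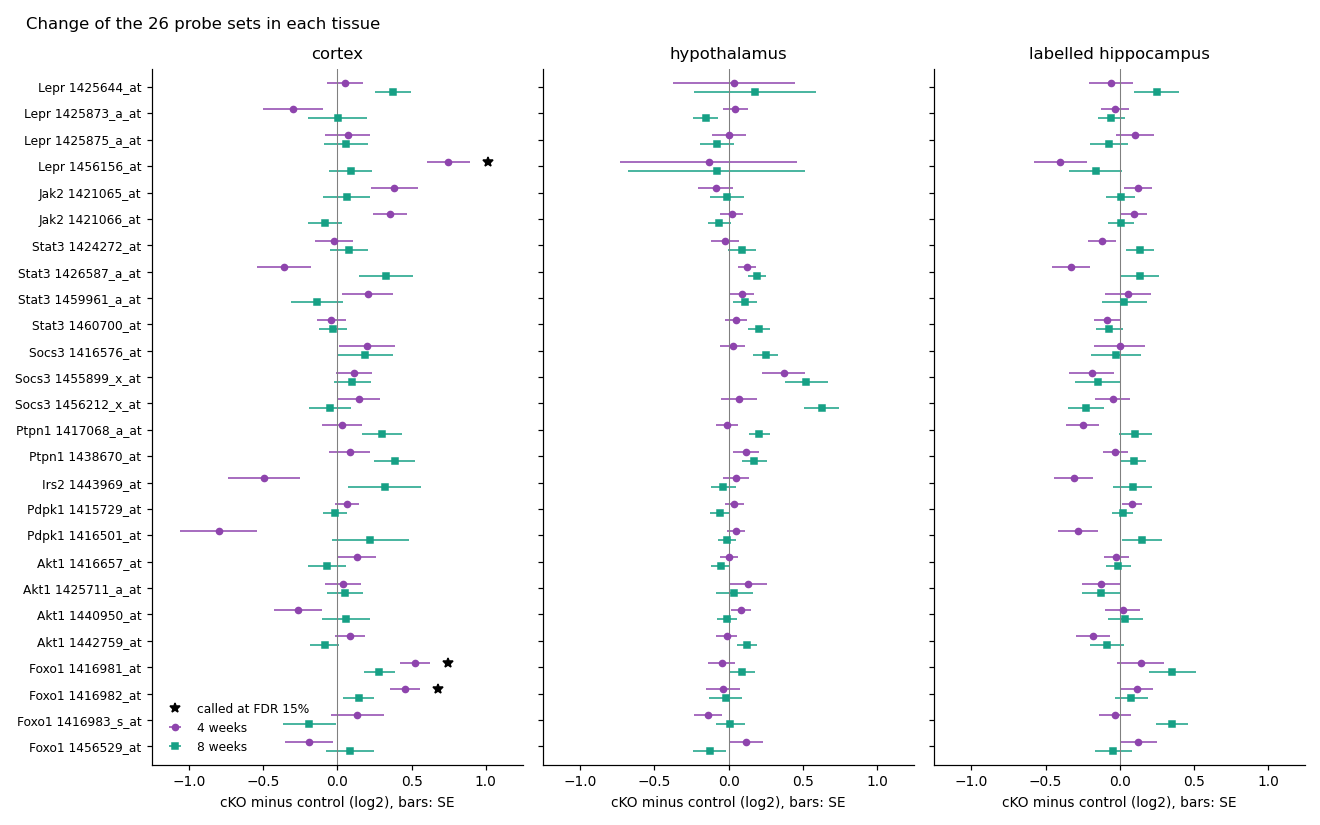
The difference between cKO and control (log2, horizontal axis) of each of the 26 probe sets in cortex, hypothalamus and the arrays labelled hippocampus, at 4 weeks (circles) and 8 weeks (squares), with bars for the standard error of the fit. Stars mark the 3 probe sets called at an FDR of 15%, all in the cortex at 4 weeks, and the Socs3 probe sets lie farthest right in the hypothalamus at 8 weeks, up to 0.63.

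The 4 probe sets of Lepr lay low to middling on the arrays. Lepr 1425875_a_at was the highest of them, with averages of 5.56 (cortex), 6.28 (hypothalamus) and 5.53 (labelled hippocampus), which was above 47.7%, 43.3% and 40.7% of all single-gene probe sets of the tissue. Lepr 1425873_a_at averaged 4.54, 4.80 and 4.25 in the same tissues. Lepr 1425644_at (3.15, 3.61 and 3.57) and Lepr 1456156_at (3.27, 3.90 and 3.38) stood above only 8.55% to 14.6% of probe sets, near the floor of the array. The rank of each of the 4 was lower within the hypothalamus than within the cortex, although all 4 had their highest log2 mean in the hypothalamus, where values in general were higher (median 6.72, against 5.72 in the cortex).

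The probe sets also differed in how they moved. Over the 36 arrays with tissue means removed, Lepr 1425644_at and 1456156_at went together (r = 0.784), while the other 5 pairs gave r between -0.157 and 0.302. In the hypothalamus the same 3 arrays held the highest values of both. Lepr 1456156_at was 5.50 in replicate 3 of the 8-week cKO, 5.38 in replicate 3 of the 8-week controls and 4.70 in replicate 1 of the 4-week controls, against 3.06 to 3.95 in the other 9 hypothalamus arrays. These arrays came from both treatments, and the standard error of the Lepr 1456156_at difference in the hypothalamus was 0.60, the widest bar in the plot of differences.

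**Figure D2:**
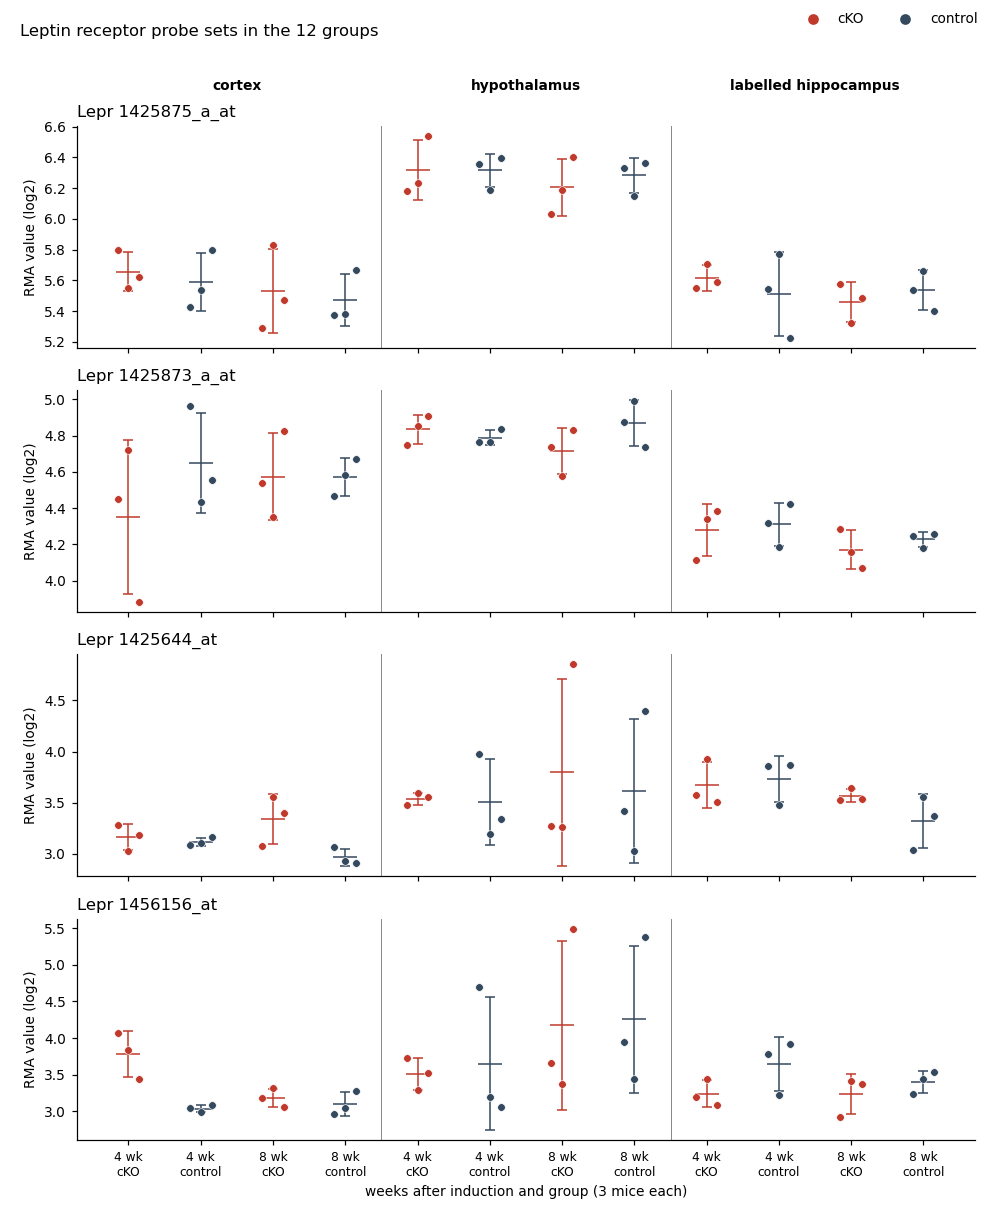
RMA values (log2, vertical axes) of the 4 Lepr probe sets in the 12 groups, each point an array, with the mean and SD of 3 mice. Lepr 1456156_at stands at 3.44 to 4.07 in the 4-week cKO cortex and at 2.98 to 3.08 in its controls, and 3 hypothalamus arrays of either treatment reach 4.70 to 5.50.

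Lepr 1456156_at rose in the cKO cortex at 4 weeks. It was 4.07, 3.84 and 3.44 in the cKO cortices, against 3.04, 2.98 and 3.08 in the control cortices, so the lowest cKO array was above the highest control. The means were 3.78 ± 0.32 in cKO and 3.03 ± 0.05 in control (SD, n = 3 each), a difference of 0.75 (SE 0.15, limma adjusted p = 0.0858). The controls lie near the floor of the array, so the size of this difference may be only a bound, and the probe set was not among those kept where dim ones were dropped. The other Lepr probe sets gave 0.05 (1425644_at), -0.30 (1425873_a_at) and 0.07 (1425875_a_at) in the same comparison, with adjusted p of 0.839, 0.419 and 0.815. The receptor transcript as a whole is therefore not described by the 1 probe set that rose, and which isoform each probe set reads was not determined.

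At 8 weeks in the cortex it was Lepr 1425644_at that stood apart, at 3.07, 3.56 and 3.40 in cKO and 3.06, 2.93 and 2.91 in control, a difference of 0.38 (SE 0.12, adjusted p = 0.919, limma). Lepr 1456156_at was 3.18, 3.31 and 3.06 in cKO and 2.97, 3.04 and 3.28 in control at that time, and the 2 groups overlapped. In the arrays labelled hippocampus at 4 weeks Lepr 1456156_at was 3.20, 3.44 and 3.09 in cKO, against 3.79, 3.22 and 3.91 in control, a difference of -0.40 (SE 0.18, adjusted p = 0.821). In the hypothalamus the differences of the 4 probe sets lay between -0.14 and 0.05 at 4 weeks and between -0.15 and 0.18 at 8 weeks, all with overlap between the groups.

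RefSeq lists 2 start sites of Lepr in the mouse assembly GRCm38.p6, and the 250 bases before each are shown since the probe sets of Lepr disagree with each other. The first window is chr4:101717157-101717406 and the second chr4:101717656-101717905, both on the plus strand.
Lepr, first start: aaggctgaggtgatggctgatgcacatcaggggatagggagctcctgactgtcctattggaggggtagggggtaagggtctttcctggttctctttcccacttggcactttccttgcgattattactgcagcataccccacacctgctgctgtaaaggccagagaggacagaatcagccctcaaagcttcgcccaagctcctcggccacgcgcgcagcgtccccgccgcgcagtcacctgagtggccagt
Lepr, second start: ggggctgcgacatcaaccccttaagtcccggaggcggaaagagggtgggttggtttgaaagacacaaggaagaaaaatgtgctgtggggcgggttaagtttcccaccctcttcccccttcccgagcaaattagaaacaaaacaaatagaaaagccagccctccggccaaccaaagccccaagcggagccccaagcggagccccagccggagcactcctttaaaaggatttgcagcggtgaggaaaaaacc
Neither window holds the letters TTCNNNGAA, the palindromic element that STAT proteins bind. Nothing in the arrays separates transcripts from the 2 starts.

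Genes of the leptomeninges, the thin membranes that cover the brain and are taken along in part when tissue is dissected, were higher in the same cKO cortices. Of the 14 genes of that list, 14 were higher and 10 were called at 4 weeks in the cortex, beside 2.37% of all probe sets called higher. Their median difference was 0.70, beside 0.09 over all probe sets. For such counts and medians, here and below, a gene of a list was read by its most variable probe set. That choice can enlarge differences, and the values over all probe sets involve no such choice. The summed level of the list (on the linear scale) ranged from 11151 to 11560 in the cKO arrays and from 8460 to 10129 in the controls. Its most abundant genes were well above the floor, as Ptgds averaged 13.04, Igf2 8.59 and Dcn 8.14 in the cortex. In the arrays labelled hippocampus at 4 weeks, where Lepr 1456156_at was lower in cKO, 14 of the 14 were lower (median -0.57), with summed levels of 8645 to 14097 in cKO and 12221 to 15842 in control. The 3 hypothalamus arrays with high Lepr 1456156_at also had the highest values of this list, with median deviations from the tissue mean of 1.72 in cKO and of 1.19 and 1.11 in control, against -0.70 to 0.12 in the other 9.

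Array by array, Lepr 1456156_at went with this list. In the cortex Pearson's r was 0.878 and Spearman's rho 0.930 over 12 arrays (permutation p = 2e-05 and 7e-05, Benjamini-Hochberg 0.00012 and 0.00042 over 6 relations, 2 Lepr probe sets in 3 tissues). It was 0.877 without the 2 arrays farthest from the median of the list and 0.80 without the 3 cKO arrays of 4 weeks. With group means removed r was 0.546, for which no p was computed. The permutations took no account of the 4 groups of a tissue. Their p-values, here and below, therefore also take in differences between groups and do not measure the relation within groups. The relation was also chosen after its values were seen. The adjustment over 6 relations does not cover that search, so these p-values are too small and serve as description. No p was computed for Lepr 1425873_a_at and 1425875_a_at. Over the arrays labelled hippocampus r was 0.786 and rho 0.692 (permutation p = 0.00278 and 0.0156, adjusted 0.00834 and 0.0469), and r was 0.518 without the 2 farthest arrays and 0.868 without replicate 1 of the 8-week cKO, the array that differed in the hippocampal markers (added after the data were seen). In the hypothalamus, where 3 arrays lay apart and were set aside, r was 0.699 and rho 0.683 over 9 arrays (exact permutation p = 0.0341 and 0.0503, adjusted 0.0512 and 0.101). Without the 2 farthest of these 9, r was 0.182, over a narrower range of the list. With group means removed r was 0.818 over the 9 hypothalamus arrays and 0.701 over the arrays labelled hippocampus, again without a p. For Lepr 1425644_at, r was 0.327 over the cortex arrays, 0.556 over the 9 hypothalamus arrays and 0.664 over the arrays labelled hippocampus (permutation p = 0.302, 0.12 and 0.0203, adjusted 0.302, 0.144 and 0.0406), with rho of 0.301, 0.617 and 0.497 (permutation p = 0.345, 0.0857 and 0.104, adjusted 0.345, 0.125 and 0.125). Without the 2 farthest arrays these r were 0.441, 0.778 and 0.464, and with group means removed they were 0.214, 0.657 and 0.757. The part of the membranes in the cortical difference of Lepr was not tested.

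**Figure D3:**
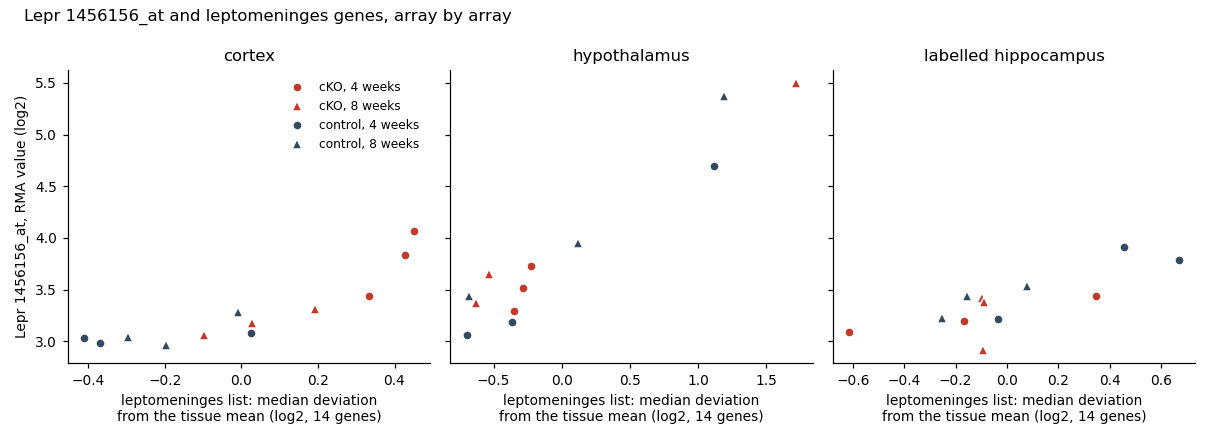
Lepr 1456156_at (log2, vertical axis) against the median deviation of 14 leptomeninges genes from the tissue mean (log2, horizontal axis), a panel for each tissue and a point for each array, coloured by treatment and shaped by time. The 3 cKO cortex arrays of 4 weeks lie at the upper right of their panel, and 3 hypothalamus arrays, 1 of cKO and 2 of control, lie far from the other 9.

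The genes whose pattern was most like that of Lepr 1456156_at over the 36 arrays, with tissue means removed, were Slc6a13 (r = 0.94), Mpzl2 (0.93), Aldh1a2 (0.93), Ogn (0.92) and Slc6a20a (0.92). Slc6a13, a GABA transporter, Aldh1a2, which makes retinoic acid, and Ogn, a small matrix proteoglycan, are members of the leptomeninges list. For Slc6a13 the r was 0.83 within the cortex, 0.98 within the hypothalamus and 0.78 within the arrays labelled hippocampus. Lepr 1425875_a_at, the highest Lepr probe set, had other and weaker partners, namely Zfand5 (0.73), Fam163b (0.72), 5830454E08Rik (0.72), Tlr5 (0.71) and Tnfrsf4 (0.70). The arrays of a tissue share their normalization, and these values are descriptions.

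Jak2, the kinase bound to the receptor, was higher in the 4-week cKO cortex in both of its probe sets without being called. Jak2 1421066_at was 8.26, 8.29 and 8.07 in cKO, against 7.69, 7.82 and 8.05 in control, so the groups did not overlap, although replicate 3 of either nearly met. The difference was 0.35 (SE 0.12, adjusted p = 0.173). Jak2 1421065_at was 6.34, 6.78 and 6.11 in cKO, against 5.79, 6.04 and 6.25 in control, a difference of 0.38 (SE 0.16, adjusted p = 0.231) with overlap. Without control replicate 3, the control array with the highest Jak2 in both probe sets, 1421066_at differed by 0.45 (adjusted p = 0.0367), but 10559 of all probe sets were then called. It was called in 5 of 24 alternatives. In the 5 other comparisons Jak2 differed by -0.09 to 0.12.

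Stat3, the transcription factor that JAK2 phosphorylates, differed between its probe sets. Stat3 1426587_a_at was 7.48, 7.58 and 8.26 in the 4-week cKO cortices, against 8.06, 8.06 and 8.28 in the control cortices. Replicates 1 and 2 of cKO were below all controls and replicate 3 was level with the highest, and the difference of -0.36 was not called (SE 0.18, adjusted p = 0.30). The other 3 probe sets, 1424272_at, 1459961_a_at and 1460700_at, gave -0.02, 0.20 and -0.04 in that comparison.

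In the hypothalamus at 8 weeks, 2 Stat3 probe sets were higher in all 3 cKO mice. Stat3 1426587_a_at was 9.72, 9.64 and 9.58 in cKO, against 9.40, 9.51 and 9.45 in control, a difference of 0.19 (SE 0.06, adjusted p = 0.553). Stat3 1460700_at was 9.39, 9.24 and 9.32 in cKO, against 9.03, 9.19 and 9.12 in control, a difference of 0.21 (SE 0.07, adjusted p = 0.664). At 4 weeks in the hypothalamus 1426587_a_at was already higher without overlap, at 9.50, 9.51 and 9.47 in cKO and 9.34, 9.39 and 9.38 in control, by 0.12 (adjusted p = 0.999). In the arrays labelled hippocampus at 4 weeks it was lower by 0.33 on the log2 scale (difference -0.33, SE 0.13, adjusted p = 0.816), and the groups overlapped.

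Socs3, the inhibitor that STAT3 induces, held the lowest p-values of the 26 probe sets in the hypothalamus at 8 weeks, in 1456212_x_at and 1455899_x_at. At 8 weeks its 3 probe sets were higher in all cKO arrays than in all controls. Socs3 1456212_x_at was 5.31, 5.08 and 5.17 in cKO, against 4.34, 4.77 and 4.58 in control. The difference was 0.63 (SE 0.12, adjusted p = 0.446). Socs3 1455899_x_at was 7.18, 6.77 and 6.79 in cKO, against 6.24, 6.30 and 6.64 in control, a difference of 0.52 (SE 0.15, adjusted p = 0.502). Socs3 1416576_at was 6.03, 6.14 and 6.12 in cKO, against 5.98, 5.81 and 5.75 in control, a difference of 0.25 (SE 0.08, adjusted p = 0.597). None was called over all probe sets, and the 2 probe sets with x in their name may read similar sequences elsewhere. Socs3 1456212_x_at was called in 2 of 22 alternatives, with array weights and without cKO replicate 3 of 8 weeks (adjusted p = 0.044, with 736 of all probe sets then called), and its adjusted p over the alternatives was up to 1. The actin control gave a 3 prime minus 5 prime signal, a measure of RNA quality, of 1.18, 1.24 and 1.20 in these cKO arrays, against 1.32, 1.59 and 1.46 in the controls (log2), without overlap. Its part in the Socs3, Stat3 and Ptpn1 differences of this comparison was not tested.

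At 4 weeks in the hypothalamus the pattern of Socs3 was not seen in all probe sets. Socs3 1455899_x_at was 6.63, 6.21 and 6.63 in cKO, against 6.11, 6.23 and 6.01 in control (difference 0.37, adjusted p = 0.999), with cKO replicate 2 inside the control range. Socs3 1456212_x_at and 1416576_at differed by 0.07 and 0.03. The change of 1456212_x_at at 8 weeks minus that at 4 weeks was 0.56 (adjusted p = 0.999), which was not called. In the cortex the 3 probe sets gave 0.11 to 0.20 at 4 weeks, and in the arrays labelled hippocampus they gave -0.19 to 0.00 at 4 weeks and -0.23 to -0.03 at 8 weeks.

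Microglia genes were high in 2 of the 3 cKO hypothalami of 8 weeks. Of 13 measured genes, 13 were higher in cKO, with a median difference of 1.35. By limma 12 had an unadjusted p under 0.05, beside 5.87% of all probe sets, and 0 of the microglia genes were called. Their median deviation from the tissue mean was 1.91, 1.34 and -0.19 for cKO replicates 1 to 3, against -0.16, -0.51 and -0.33 for control replicates 1 to 3, and their summed level ranged from 9625 to 34604 in cKO and from 7755 to 9519 in control. Socs3 in cKO replicate 3, where this list was near the controls, was 5.17, 6.79 and 6.12 in the 3 probe sets, each above all controls. This is 1 array, and the part of microglia in the Socs3 differences was not tested. Of 11 astrocyte genes, 10 were higher in cKO at that time, with a median difference of 0.19.

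**Figure D4:**
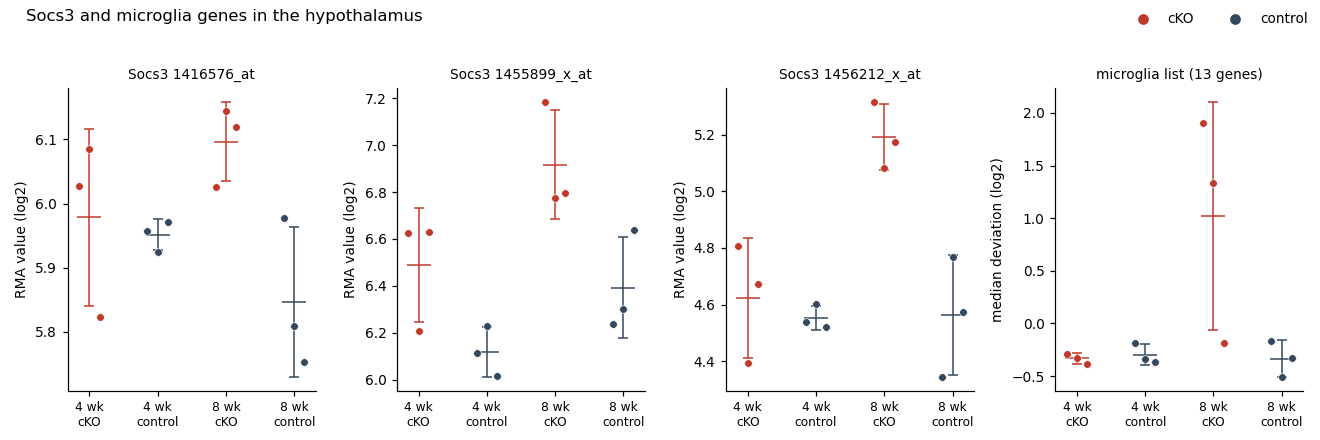
RMA values (log2) of the 3 Socs3 probe sets in the hypothalamus and, at the right, the median deviation of 13 microglia genes from the tissue mean (log2), by time and treatment, each point an array with the mean and SD of 3 mice. At 8 weeks all cKO arrays lie above all controls for each Socs3 probe set. Microglia genes are high in cKO replicates 1 and 2 (1.91 and 1.34) and not in replicate 3 (-0.19), and their part was not tested.

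Ptpn1, the phosphatase that acts on JAK2, was higher in cKO at 8 weeks in cortex and hypothalamus without being called. In the cortex Ptpn1 1417068_a_at was 8.17, 8.30 and 8.06 in cKO, against 7.87, 7.95 and 7.81 in control (difference 0.30), and Ptpn1 1438670_at was 7.89, 8.16 and 7.77, against 7.62, 7.56 and 7.48 (difference 0.39). Both had an adjusted p of 0.919, and neither overlapped. In the hypothalamus 1417068_a_at was 8.62, 8.52 and 8.44 in cKO, against 8.25, 8.43 and 8.27 in control, a difference of 0.21 (SE 0.07, adjusted p = 0.635). There 1438670_at differed by 0.17 (SE 0.08, limma adjusted p = 0.874), and its groups overlapped. At 4 weeks the 2 probe sets differed by 0.03 and 0.08 in the cortex, by -0.01 and 0.12 in the hypothalamus and by -0.25 and -0.03 in the arrays labelled hippocampus. The 2 probe sets of Ptpn1 followed each other over the 36 arrays (r = 0.786).

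Irs2, the adaptor between the receptor and PI3-kinase, has 1 probe set, 1443969_at. It was 7.15, 7.13 and 8.12 in the 4-week cKO cortices, against 7.86, 7.80 and 8.22 in the control cortices. As for Stat3 1426587_a_at, cKO replicates 1 and 2 were below all controls and replicate 3 was not, and the difference of -0.50 was not called (SE 0.25, adjusted p = 0.291). At 8 weeks Irs2 was 7.69, 8.00 and 7.66 in cKO, against 7.65, 7.66 and 7.10 in control, a difference of 0.32 (limma adjusted p = 0.919) without overlap. In the arrays labelled hippocampus at 4 weeks it was 8.08, 7.91 and 7.93 in cKO, against 8.19, 8.45 and 8.21 in control, a difference of -0.31 (adjusted p = 0.821).

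Pdpk1 encodes PDK1, the kinase that activates AKT. Pdpk1 1416501_at was 7.83, 8.09 and 9.11 in the 4-week cKO cortices, against 9.29, 9.02 and 9.11 in the control cortices. The difference of -0.80 (SE 0.26, adjusted p = 0.172) was not called, with replicates 1 and 2 of cKO below all controls and replicate 3 among them. It was called in 4 of 25 alternatives, and ranged over them from -1.20 to -0.54 (adjusted p = 0.00179 to 0.53). Among these, leaving out cKO replicate 3, the array that lay among the controls, gave -1.18 (adjusted p = 0.00179), but 6624 of all probe sets were then called. Without control replicate 3 it was -0.81 (adjusted p = 0.0987), with 10559 of all called. The other probe set, Pdpk1 1415729_at, is the highest of the 26 in the cortex (9.59 on average) and was 9.68, 9.61 and 9.66 in cKO and 9.60, 9.63 and 9.52 in control, a difference of 0.06. The 2 probe sets of Pdpk1 thus did not move together in this comparison, and over the 36 arrays their r was -0.201.

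In the 4-week cortex the actin ratio (3 prime minus 5 prime, log2) was 1.12, 1.12 and 1.14 in cKO, against 1.30, 1.33 and 1.07 in control, with control replicate 3 below the cKO arrays. Its part in the differences of Pdpk1 1416501_at, Irs2 and Stat3 1426587_a_at was not tested. Irs2 and Stat3 1426587_a_at were each called in 3 of 25 alternatives, among them that without cKO replicate 3 (-0.83 and -0.60), where 6624 of all probe sets were called.

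Akt1, the kinase at the centre of the PI3-kinase arm, differed by -0.27 to 0.13 over its 4 probe sets in the 4-week cortex, and by -0.18 to 0.13 in the other comparisons. Its main probe set 1416657_at was 9.10, 8.93 and 9.03 in the 4-week cKO cortices, against 8.75, 8.75 and 9.16 in the control cortices. Of its 24 values over the 6 comparisons, none had an unadjusted p under 0.05.

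Foxo1, the transcription factor that AKT restrains, rose in the 4-week cKO cortex in 2 of its 4 probe sets. Foxo1 1416981_at was 7.79, 7.72 and 7.72 in cKO, against 7.15, 7.10 and 7.41 in control. The means were 7.74 ± 0.04 and 7.22 ± 0.17 (SD, n = 3 each), a difference of 0.52 (SE 0.10, adjusted p = 0.0858). Foxo1 1416982_at was 6.48, 6.72 and 6.40 in cKO, against 5.97, 6.05 and 6.20 in control, with means of 6.53 ± 0.17 and 6.08 ± 0.12, a difference of 0.46 (SE 0.10, adjusted p = 0.107). In both, the 3 cKO arrays lay above the 3 controls. Foxo1 1416983_s_at and 1456529_at differed by 0.13 (adjusted p = 0.684) and -0.19 (adjusted p = 0.513), with overlap. Over the 36 arrays 1416981_at and 1416982_at followed each other (r = 0.750), whereas either gave r between -0.231 and 0.211 with the other 2.

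At 8 weeks in the cortex the same 2 probe sets were again higher in every cKO array, though not called. Foxo1 1416981_at was 7.22, 7.27 and 7.06 in cKO, against 6.93, 6.93 and 6.84 in control (difference 0.28, SE 0.10, adjusted p = 0.919). Foxo1 1416982_at was 5.97, 6.05 and 6.01 in cKO, against 5.89, 5.84 and 5.88 in control (difference 0.14, adjusted p = 0.919). In the hypothalamus the 2 differed by -0.05 and -0.04 at 4 weeks and by 0.09 and -0.02 at 8 weeks.

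**Figure D5:**
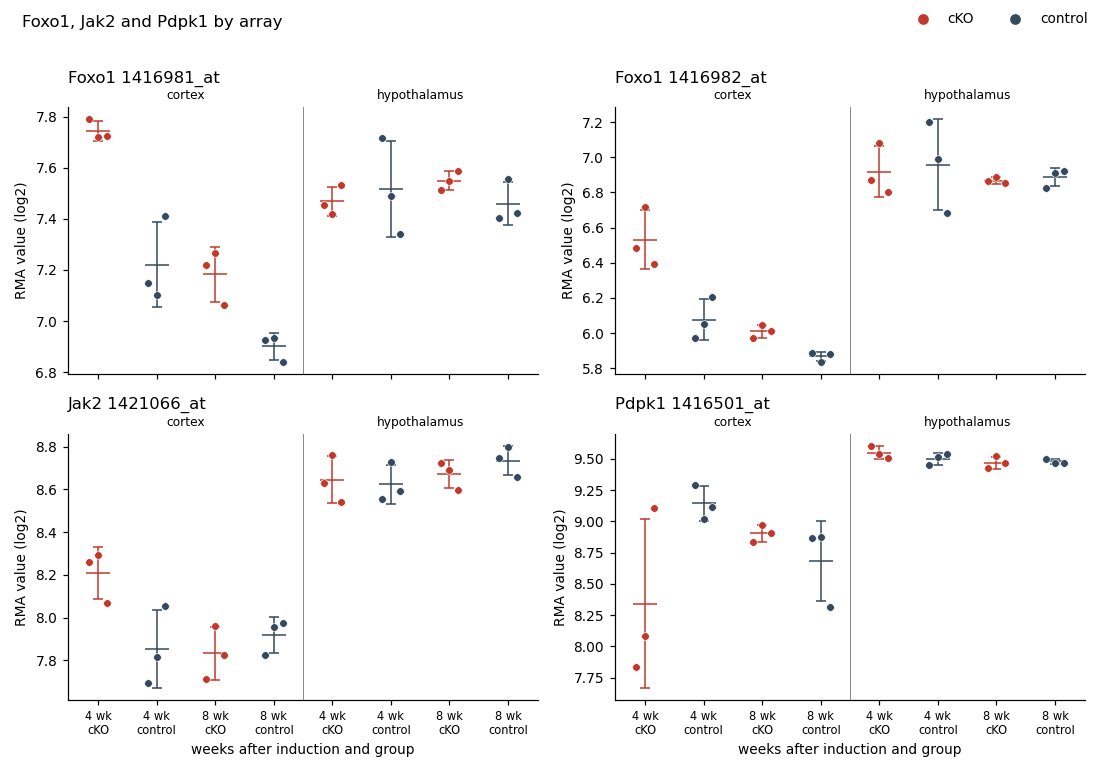
RMA values (log2, vertical axes) of Foxo1 1416981_at and 1416982_at, Jak2 1421066_at and Pdpk1 1416501_at in cortex and hypothalamus, each point an array with the mean and SD of 3 mice. In the 4-week cortex all cKO arrays lie above all controls for Foxo1 and Jak2, while Pdpk1 is low in 2 cKO arrays (7.83 and 8.09) and at 9.11 in the third, and the hypothalamus groups overlap.

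At 8 weeks in the arrays labelled hippocampus Foxo1 1416983_s_at was 8.17, 7.92 and 7.73 in cKO, against 7.68, 7.46 and 7.63 in control (difference 0.35, SE 0.11, adjusted p = 0.816), without overlap. Foxo1 1416981_at was 7.79, 7.32 and 7.04 in cKO, against 7.07, 7.16 and 6.85 in control (difference 0.35, SE 0.16, adjusted p = 0.816), with overlap. Replicate 1 of cKO, the array with hippocampal markers, was the highest in both. Without it the differences were 0.24 for 1416983_s_at and 0.15 for 1416981_at, and none of the 26 was called with or without it.

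At 4 weeks in the arrays labelled hippocampus the members that did not overlap were mostly lower in cKO. Pdpk1 1416501_at was 9.78, 9.85 and 9.43 in cKO, against 9.96, 9.90 and 10.05 in control (difference -0.28, SE 0.13, adjusted p = 0.825), while Pdpk1 1415729_at was slightly higher in cKO (0.08, adjusted p = 0.907). Ptpn1 1417068_a_at was 8.05, 8.08 and 8.10 in cKO, against 8.19, 8.37 and 8.43 in control (difference -0.25, adjusted p = 0.821). Of the 6 that did not overlap, 5 were lower in cKO, the others being Irs2, Stat3 1424272_at and Akt1 1442759_at. Of all probe sets, 10.5% did not overlap in this comparison and 0% were called, and the directions of those without overlap were not counted. All 13 measured microglia genes had lower means in the same cKO arrays as well (median -0.36, 0 called). Their median deviation from the tissue mean was -0.34 to -0.05 in cKO and -0.19 to 0.89 in control, so that the groups overlapped. The part of these genes was not tested.

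The calls of Lepr 1456156_at and of the 2 Foxo1 probe sets in the 4-week cortex depended on single arrays and on the threshold. All 3 calls ended without cKO replicate 1 (adjusted p = 0.21, 0.216 and 0.228), cKO replicate 2 (0.297, 0.297 and 0.345), control replicate 1 (0.312, 0.312 and 0.354) or control replicate 2 (0.271, 0.282 and 0.306), and the differences stayed between 0.36 and 0.75. That of Foxo1 1416982_at also ended without control replicate 1 or 2 of 8 weeks (adjusted p = 0.166 and 0.172). Without the 3 arrays named above, the differences were 0.94, 0.63 and 0.59 (adjusted p = 0.00163, 0.00274 and 0.0045), but then 15939 of all probe sets and 13 of the 26 were called. In this comparison excitatory neuron genes were lower in cKO for 10 of 11 (2 called, median -0.41) and cortical neuron genes for 5 of 7 (2 called, median -0.73). Of all probe sets, 0.509% were called lower there. Those counts read each gene by its most variable probe set. Read by the probe set of highest mean level, the summed levels overlapped between the groups. They were 13096.5 to 13873 in cKO and 13294 to 13504 in control for excitatory neuron genes. For cortical neuron genes they were 3844 to 4583 in cKO and 4438 to 4705 in control.

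Other genes of the pathway, from lists beside the 9, held few calls in the 4-week cortex, where 2.88% of all probe sets were called. At that share few calls would fall in lists of this size. Of 10 membrane partners of the receptor, 0 were called (median 0.13, beside 0.09 over all probe sets). The lowest p was that of Ptpn11, the phosphatase SHP2, with 6.09 in cKO and 6.92 in control (difference -0.83, adjusted p = 0.25). Of 8 other JAK and STAT genes measured, 0 were called, with Tyk2 at -0.37 (adjusted p = 0.181). Of 20 inhibitors measured, 0 were called, with Phlpp1, a phosphatase of AKT, at 0.29 (adjusted p = 0.156). Of 22 genes of the insulin and PI3-kinase arm measured, 0 were called, with Rptor, a subunit of the mTOR complex, at 0.33 (adjusted p = 0.212). No gene of any of these lists was called in the other 5 comparisons.

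Genes induced by STAT3 held more. Of 17, 5 were called in the 4-week cortex, all higher in cKO (beside 2.37% of all probe sets called higher), and the median difference was 0.25, beside 0.09 over all probe sets. Each gene was read by its most variable probe set, a choice that can raise the list above these shares of unselected probe sets. Leptomeninges genes were higher in the same arrays (14 of 14, 10 called, median 0.70), and their part was not tested. Bcl6, a transcriptional repressor, was 5.53, 5.87 and 5.74 in cKO, against 5.27, 5.06 and 5.13 in control (difference 0.56, SE 0.11, adjusted p = 0.0906). Cebpd, a transcription factor of the acute phase, was 6.57, 7.17 and 7.16 in cKO, against 6.02, 6.25 and 6.23 in control (0.80, SE 0.19, adjusted p = 0.114). Gfap, a filament protein of astrocytes, was 8.09, 8.43 and 8.00 in cKO, against 7.48, 7.63 and 7.34 in control (0.69, SE 0.17, adjusted p = 0.129). Osmr, a receptor for oncostatin M, gave 0.53 (SE 0.14, adjusted p = 0.138). These 4 genes were named for having the lowest p, which favours arrays that do not overlap. Their cKO and control arrays did not overlap, beside 17.7% of all probe sets without overlap. These genes are also known to respond to signals other than leptin, and Gfap is on the astrocyte list as well.

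In the hypothalamus at 8 weeks 15 of the same 17 genes were higher in cKO, with a median of 0.32, beside -0.01 over all probe sets. Of the 17, 9 had an unadjusted p under 0.05 by limma, beside 5.87% of all probe sets, but 0 were called. Of the genes named here after their values were seen, Timp1, an inhibitor of matrix proteases, was 6.22, 5.35 and 5.55 in cKO, against 4.84, 4.89 and 4.88 in control (0.84, adjusted p = 0.446). Gfap was 11.07, 10.23 and 9.25 in cKO, against 8.98, 8.37 and 9.05 in control (1.38, adjusted p = 0.488), and was lowest in replicate 3, the array without high microglia genes. Icam1, an adhesion molecule, was 6.84, 6.37 and 5.76 in cKO, against 5.56, 4.98 and 5.59 in control (0.94, adjusted p = 0.488). In the arrays labelled hippocampus at 4 weeks 15 of the 17 were lower in cKO, with a median of -0.14 and 0 called.

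The 250 bases before the RefSeq start are shown for Socs3 and for 2 genes of this list, because they hold the STAT element TTCNNNGAA (set in capitals, 5′ to 3′ along the gene, and the same read on either strand). Of 32851 such windows of 27025 genes in GRCm38.p6, 2306 (7.02%) hold it, and 0.0274% hold it 3 or more times. Of the 12 windows of the 9 genes, 1 holds it, that of Socs3. Of the 18 windows matched for 15 of the 17 STAT3-induced genes, 4 do, and they belong to Bcl6 (both of its starts), Icam1 and Irf1. The Socs3 window is chr11:117969367-117969616 on the minus strand, with the match 154 to 146 bases before the start. The Bcl6 window is chr16:23981284-23981533 on the minus strand, with matches that begin 168, 122 and 88 bases before the start, and the Icam1 window is chr9:21015690-21015939 on the plus strand, with a match that begins 42 bases before it.
Socs3: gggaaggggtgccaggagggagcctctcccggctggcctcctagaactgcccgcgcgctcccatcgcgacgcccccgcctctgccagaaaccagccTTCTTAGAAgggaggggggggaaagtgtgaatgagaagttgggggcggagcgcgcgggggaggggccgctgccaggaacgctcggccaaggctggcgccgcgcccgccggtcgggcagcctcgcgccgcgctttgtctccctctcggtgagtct
Bcl6: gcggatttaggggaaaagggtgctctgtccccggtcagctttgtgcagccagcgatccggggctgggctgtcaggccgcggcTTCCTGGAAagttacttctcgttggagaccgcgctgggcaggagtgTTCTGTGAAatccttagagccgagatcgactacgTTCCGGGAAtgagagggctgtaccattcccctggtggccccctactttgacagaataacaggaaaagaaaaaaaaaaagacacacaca
Icam1: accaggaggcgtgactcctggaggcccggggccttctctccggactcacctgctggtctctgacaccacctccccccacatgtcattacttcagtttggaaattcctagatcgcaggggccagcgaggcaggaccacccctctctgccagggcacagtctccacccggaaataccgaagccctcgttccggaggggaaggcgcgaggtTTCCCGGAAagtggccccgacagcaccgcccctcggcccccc
A match of letters is a description of the window and says nothing of whether STAT3 was bound in these tissues.

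Of 15 genes induced by FOXO1, 1 was called in the 4-week cortex, beside 2.37% of all probe sets called higher. It was Txnip, an inhibitor of thioredoxin, at 7.83, 8.15 and 8.11 in cKO and 7.18, 7.41 and 7.57 in control (0.64, SE 0.14, adjusted p = 0.103). The median of the list was 0.03, below that of all probe sets. Of 10 measured melanocortin neuropeptides and receptors downstream of leptin, 0 were called in any comparison. Of all probe sets, 2.88% were called in the 4-week cortex and at most 0.00858% in the other comparisons. In the 4-week cortex Crh, corticotropin-releasing hormone, had the lowest p (-0.86, adjusted p = 0.186). In the hypothalamus at 8 weeks 9 of the 10 were lower in cKO, with a median of -0.20, and 1, Npy5r, a receptor for neuropeptide Y, had an unadjusted p under 0.05 (-0.33, adjusted p = 0.693). In the same comparison 10 of 11 hypothalamic neuron genes (median -0.11) and 7 of 9 inhibitory neuron genes (median -0.14) were lower in cKO, and microglia genes were higher (median 1.35), and their part was not tested.

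Whether the differences changed with time was tested as the difference at 8 weeks minus that at 4 weeks. None of the 26 was called in any tissue, and the share called over all probe sets was 0.00286% for cortex, 0% for hypothalamus and 0% for the arrays labelled hippocampus. In the cortex Lepr 1456156_at differed by 0.09 at 8 weeks and 0.75 at 4 weeks (change -0.66, adjusted p = 0.413). Pdpk1 1416501_at differed by 0.22 at 8 weeks and -0.80 at 4 weeks (change 1.02, adjusted p = 0.417), and Irs2 by 0.32 and -0.50 at these times (change 0.81, adjusted p = 0.467). A difference between the times was thus not shown for any of the 26.

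Between tissues, the cortical difference was set against that of the hypothalamus and of the arrays labelled hippocampus. At 4 weeks 3 of the 26 were called for cortex minus hypothalamus, beside 6.27% of all probe sets. They were Foxo1 1416981_at (0.52 in the cortex and -0.05 in the hypothalamus, difference 0.57, SE 0.12, adjusted p = 0.0835), Foxo1 1416982_at (0.46 and -0.04, difference 0.49, SE 0.14, adjusted p = 0.12) and Pdpk1 1416501_at (-0.80 and 0.05, difference -0.85, SE 0.28, adjusted p = 0.132). For cortex minus the arrays labelled hippocampus 1 of the 26 was called, beside 0.61% of all probe sets, namely Lepr 1456156_at (0.75 and -0.40, difference 1.15, SE 0.24, adjusted p = 0.0808). These comparisons use the same cortex arrays as above. The calls of Pdpk1, Foxo1 1416982_at and Lepr ended without cortex cKO replicate 1 or 2 or control replicate 1 or 2 (adjusted p = 0.163 to 0.31), and that of Foxo1 1416981_at without cKO replicate 2 or control replicate 1 (0.193 and 0.247). At 8 weeks none of the 26 was called in either, beside 0% of all probe sets in both. The lowest adjusted p was then that of Socs3 1456212_x_at, which differed by -0.05 in the cortex and 0.63 in the hypothalamus (difference -0.68, adjusted p = 0.689).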

How the data were processed

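RNA of 36 dissected brain samples, each from 1 mouse per tissue, was measured on Affymetrix mouse whole-genome arrays. The deposited log2 values were made by the authors with RMA in Affymetrix Expression Console (version not given in the sources used here), for each tissue separately and without a filter. Tests therefore ran within a tissue, or on differences between cKO and control that had been formed within tissues. Probe sets were named through GEO's platform annotation, which gave 1 gene for 34945 of 45101, several for 932 and none for 9160, and 64 were controls. Arrays give no read depth, and their number limits the precision.

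limma 3.58.1 (R 4.3.3, with statmod 1.5.0) was fitted over all 34945 single-gene probe sets with 4 groups per tissue, and p-values (two-sided) were adjusted by Benjamini-Hochberg and called at an FDR of 15%, the threshold of the study's methods. An exact permutation test of 3 against 3 arrays cannot go below p = 0.1, so none was used. Cortex and hypothalamus arrays of 1 animal were given a common correlation (0.109). The fit was run on simulated data as a check. Described were all probe sets of the 9 genes, the called genes of each pathway list (at most 4 by p) or else the gene with the lowest p in the 4-week cortex, and the 5 genes most like Lepr. A gene of a list was read by its most variable probe set in the tissue for differences and calls. For summed levels and median deviations it was read by the probe set of highest mean level. The choice by variance can enlarge differences, so shares over all probe sets are not a like background for the lists. The 9 genes, the lists and the 3 cortex arrays set aside were chosen with earlier results of these data known. Timp1, Gfap and Icam1 in the hypothalamus, Npy5r, the relation of Lepr to leptomeninges genes (100000 permutations, or all orders for 9 arrays), the actin ratio, the ranges of the tissue markers and the Dicer1 ranges were chosen after their values were seen. Detection calls and probe positions were not used here. Alternatives changed the probe sets fitted, the scaling, the variance model, array weights, the arrays, the test, the threshold and the replicate block. Promoter windows are RefSeq's.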

Additional observations from a re-analysis of the deposited data

Results flagged for a closer look

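At 4 weeks, 4 differences between cKO and control differed between tissues by limma's test of the difference itself, at an FDR of 15%. For Foxo1 1416981_at the cortical difference was above that of the hypothalamus by 0.57 (SE 0.12, adjusted p = 0.0835). For Foxo1 1416982_at it was above it by 0.49 (SE 0.14, adjusted p = 0.12). For Pdpk1 1416501_at the cortical minus the hypothalamic difference was -0.85 (SE 0.28, adjusted p = 0.132), with cKO replicate 3 of the cortex at 9.11, among the controls. For Lepr 1456156_at the cortical difference was above that of the arrays labelled hippocampus by 1.15 (SE 0.24, adjusted p = 0.0808). Leptomeninges genes moved in the same directions, with medians of 0.70 in the cortex and -0.57 in the arrays labelled hippocampus. Most of these arrays were low in the hippocampal genes Spink8, Lct and Dsp. These calls ended under several alternatives. For Pdpk1 5 of 7 alternatives did not call it, for Foxo1 1416982_at 5 of 7, for Foxo1 1416981_at 2 of 7 and for Lepr 4 of 6, and the signs held in each. With the arrays of an animal taken as independent the adjusted p was 0.183 for Pdpk1 and 0.175 for Foxo1 1416982_at. Without cortex cKO replicate 1 or 2, or control replicate 1 or 2, it was 0.194 to 0.31 for Pdpk1, 0.188 to 0.288 for Foxo1 1416982_at and 0.163 to 0.206 for Lepr, and without cKO replicate 2 or control replicate 1 it was 0.193 and 0.247 for Foxo1 1416981_at.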

How the results depend on the processing

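In the 4-week cortex 3 of the 26 probe sets were called (1005 of all). The count was 1 with the most variable probe set of each gene and dim ones dropped (769 of all), and 1 with array medians set equal (89). It was 0 with only the 6 arrays compared (0), 0 by an unpaired t-test in place of limma (1) and 0 at an FDR of 5% (2). It was 13 with array weights (15860) and 13 without the 3 cortex arrays set aside (15939). Leaving out 1 array at a time gave 0 to 9 (0 to 10559 of all), with 9 without control replicate 3 of 4 weeks. For the change between times in the cortex the count was 0, but 9 with array weights, 12 without the 3 arrays and 0 to 5 with 1 array left out. In the hypothalamus at 8 weeks it was 0, but 1 with array weights (Socs3 1456212_x_at, adjusted p = 0.0955), and 0 to 1 with 1 array left out. For cortex minus hypothalamus at 4 weeks it was 3, but 1 with the arrays of an animal taken as independent, and 0 to 9 with 1 array left out. For cortex minus the arrays labelled hippocampus it was 1, and 0 to 4 with 1 array left out. The causes were not tested. The sign of Lepr 1456156_at in the 4-week cortex held in 23 of 23 alternatives and its call in 14. The sign of Foxo1 1416981_at held in 25 of 25 and its call in 17, and for Foxo1 1416982_at the sign held in 24 of 24 and the call in 12. No value of a single probe set changed its direction as a call.

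With the replicate number as a block, 0 of the 26 were called in the 4-week cortex (3 of all), with adjusted p of 0.167 for Lepr 1456156_at and of 0.171 and 0.18 for Foxo1 1416981_at and 1416982_at. The same-numbered cortex arrays of 4 weeks did not deviate together (correlations of -0.03, 0.01 and 0.01), so they share only a number. In the hypothalamus at 8 weeks they did (0.16, 0.19 and 0.22), and the block changed no count of calls there or in the other comparisons of cKO with control.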
